A study of Homo sapiens with 6 samples.

Results

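Integrins are receptors made of an α and a β chain that hold cells to the extracellular matrix, and laminins are 3-chain proteins (α, β and γ) of the basement membrane to which several integrins bind. The human genes for these chains, 26 integrin and 12 laminin genes, were found by symbol among the protein-coding genes of the GENCODE 44 annotation, which gave 38 of the 67060 genes in the count table (coordinates below are on GRCh38). They were followed in SH-SY5Y, a human neuroblastoma cell line labelled as neuronal progenitor, 24 h after infection with Ad CMV 3xFlag-*Esrrg*, an adenovirus that expresses the mouse *Esrrg* coding sequence with a 3xFlag tag from the CMV promoter. Control cells received the adenovirus Ad CMV GFP, so both groups carried a virus, and uninfected cells were not analysed here. Each group had 3 libraries of total RNA depleted of ribosomal RNA, replicates 1, 3 and 4 for Ad CMV GFP and replicates 2, 3 and 4 for Ad CMV 3xFlag-*Esrrg*, and values for the libraries are given in that order. The design text gives the aim as an examination of gene expression after Flag-ERRγ expression. No source used here says that the libraries came from separate cultures, so p-values measure only the spread between libraries.

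In the pairs that integrins form, the α chain largely sets the ligand. The chains of *ITGA1*, *ITGA2*, *ITGA10* and *ITGA11* bind collagens, those of *ITGA3*, *ITGA6* and *ITGA7* bind laminins, and those of *ITGA5*, *ITGA8*, *ITGAV* and *ITGA2B* bind ligands with the RGD motif, such as fibronectin and vitronectin. The β chain carries most of the contact to the cytoskeleton, and the *ITGB1* chain has the most partners. Laminin trimers are named after their 3 chains, and the α chain holds the main integrin-binding domains. Estrogen-related receptor gamma (ERRγ), the product of *ESRRG*, is an orphan nuclear receptor best known for driving genes of mitochondrial energy metabolism.

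The level of *ESRRG* in normalized CPM (counts scaled by library size and TMM factor) was 83.6, 90.4 and 86.9 with Ad CMV GFP. With Ad CMV 3xFlag-*Esrrg* it was 570, 772 and 778, a log2 fold change of 3.02 ± 0.14 (SE, n = 3 libraries per group). Reads of the mouse sequence that align to the human gene are part of this value. Gene counts ranged from 24969759 to 40859666 per library. Reads that met no annotated feature are called reads outside genes here. This name is only a label, as the counts do not show whether they lay between genes, within introns or on the opposite strand. They made up 51.3% to 52.2% of reads in the Ad CMV GFP libraries. In Ad CMV 3xFlag-*Esrrg* replicates 2, 3 and 4 they made up 46.6%, 31.6% and 29.5%. Replicate 2 of Ad CMV 3xFlag-*Esrrg* thus stood apart from replicates 3 and 4. Of 12 markers of adrenergic neuroblastoma cells, 10 were tested, with 1 called higher and 3 lower, and their summed level was 861 to 916 CPM with Ad CMV GFP and 633 to 817 CPM with Ad CMV 3xFlag-*Esrrg*. *TH* and *CHGA*, defining genes of catecholaminergic cells, were listed at 0 in every library, which cannot be read as absence because genes used by every cell, such as *ACTN4*, were also listed at 0. Mesenchymal or fibroblast markers summed to 6160 to 6432 CPM and 5543 to 6587 CPM, with 2 of 12 tested genes called higher and 2 lower. Schwann cell markers summed to 7.40 to 8.05 CPM and 5.05 to 6.02 CPM, with 1 of 5 tested genes called lower. Leukocyte markers summed to 3.19 to 4.04 CPM and 3.22 to 3.38 CPM with *CD3E* at 0, and platelet markers to 3.01 to 3.41 CPM and 3.85 to 4.61 CPM with *PF4*, *PPBP* and *GP9* at 0. Epithelial markers, with *CLDN7* at 0, summed to 35.5 to 42.0 CPM and 60.4 to 94.8 CPM, with *KRT18* called higher of 4 tested. Endothelial markers summed to 1.06 to 1.94 CPM and 2.13 to 2.73 CPM, with 1 of 2 tested genes called higher. Of all tested genes, 17.3% were called higher and 16.8% lower (25.9% and 12.4% of tested protein-coding genes). These marker lists are too short to be set against those shares. The part of these markers in the results below was not tested. In these bulk libraries, fewer cells of a type and less RNA per cell cannot be told apart.

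Across the 38 genes, 31 had enough counts to be tested. The edgeR quasi-likelihood test, at an adjusted p below 0.05 over all tested genes and a fold change of at least 1.5, called 8 of them higher and 3 lower with Ad CMV 3xFlag-*Esrrg*. The genes called higher were *ITGA5*, *LAMA1*, *LAMA4*, *ITGB5*, *ITGA3*, *ITGAE*, *ITGB8* and *ITGB3*, and those called lower were *ITGA10*, *LAMA2* and *ITGA1*. These 11 genes were 35.5% of those tested, beside 34.1% of all 24500 tested genes and 38.3% of tested protein-coding genes, a share near the background that says nothing particular of these families. Genes called higher made up 25.8% of the tested members, beside 17.3% of all tested genes and 25.9% of protein-coding genes. Genes called lower made up 9.68%, beside 16.8% and 12.4%. In 18 of the 31 genes the libraries of the groups did not overlap, and this held for 58.1% of all tested genes. On the adjusted p alone, 10 members were higher and 5 lower, and 47.8% of all tested genes passed (24.3% higher, 23.5% lower). The median log2 fold change of the members was 0.09, beside -0.10 for all tested genes and 0.12 for protein-coding genes. When libraries were scaled by size alone, the median of all tested genes moved to -0.42, the share of all calls that were higher went from 50.7% to 22.5%, and 5 members were called higher and 7 lower.

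**Figure D1:**
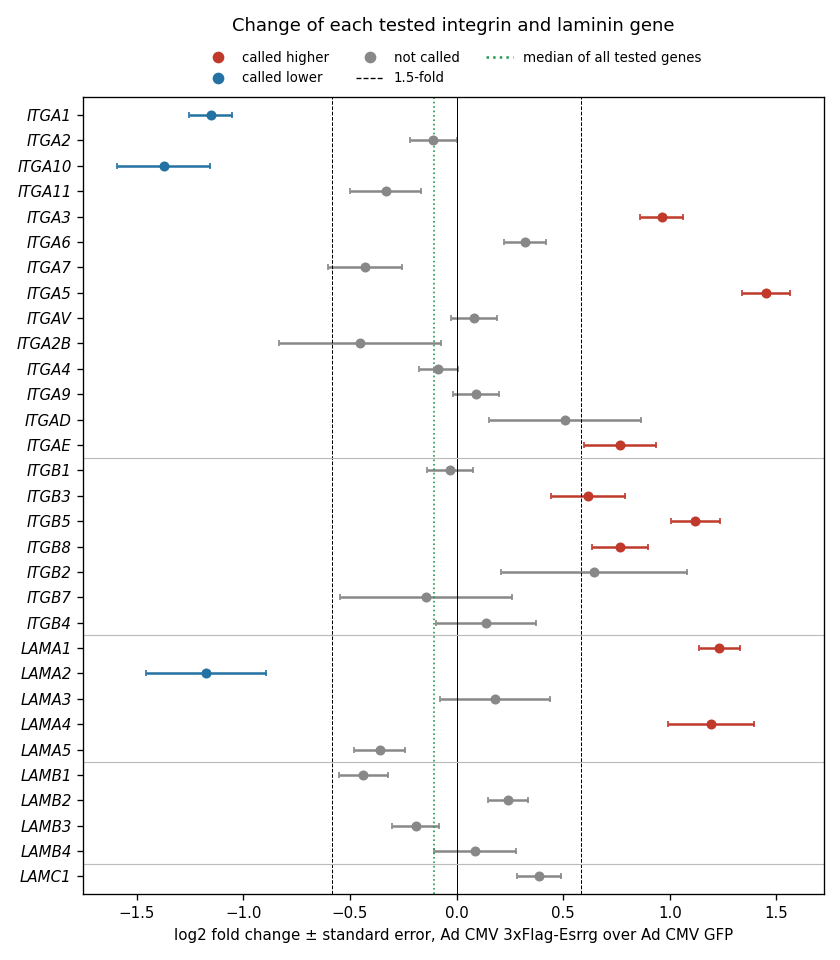
Log2 fold change of each of the 31 tested genes, Ad CMV 3xFlag-*Esrrg* over Ad CMV GFP, with bars for the standard error (3 libraries per group), dashed lines at 1.5-fold and a dotted line at the median of all tested genes. Red points (called higher) reach 1.45 for *ITGA5*, and blue points (called lower) reach -1.37 for *ITGA10*.

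Collagen-binding α chains split between the most abundant integrin α gene and 3 others. The level of *ITGA2*, whose chain pairs with that of *ITGB1* as a collagen receptor of platelets and epithelia, was 886, 773 and 787 CPM with Ad CMV GFP and 776, 772 and 719 CPM with Ad CMV 3xFlag-*Esrrg*. These ranges overlapped, and the log2 fold change was -0.11 ± 0.11 (adjusted p = 0.43). *ITGA1* (ENSG00000213949, chr5:52787916-52959209, plus strand), the neighbour of *ITGA2* with 30130 bases between them, encodes a chain that favours collagen IV of basement membranes. Its level was 179.8, 169 and 154 CPM against 82.2, 73.5 and 70.7 CPM. Every Ad CMV 3xFlag-*Esrrg* library lay below every Ad CMV GFP library, and *ITGA1* fell 2.22-fold (log2 -1.15 ± 0.10, adjusted p = 3e-05). Exons of other genes, among them *PELO* on the same strand, cover 13.2% of its exon length. *ITGA10* (ENSG00000143127, chr1:145891208-145910111, minus strand), the collagen receptor of cartilage, was a low gene at 5.57, 3.85 and 4.26 CPM against 2.17, 1.69 and 1.44 CPM. It fell 2.59-fold (log2 -1.37 ± 0.22, adjusted p = 6e-04), again with no overlap. *ITGA11*, a collagen receptor of fibroblasts, stood at 4.36, 3.94 and 4.62 CPM against 3.78, 2.97 and 3.55 CPM and was not called (log2 -0.33 ± 0.17, adjusted p = 0.12).

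Among laminin-binding α chains, *ITGA3* (ENSG00000005884, chr17:50055968-50090481, plus strand) was called. Its chain pairs with that of *ITGB1* and binds laminins with an α chain from *LAMA3* or *LAMA5*. Levels were 189.8, 212 and 209 CPM with Ad CMV GFP and 379.7, 394 and 417 CPM with Ad CMV 3xFlag-*Esrrg*. All 3 libraries were higher than any control library, 1.95-fold on average (log2 0.96 ± 0.10, adjusted p = 6.6e-05). Correction for GC content and length took this value to 0.58, just under the 1.5-fold limit. *ITGA6*, the laminin receptor chain that pairs with *ITGB1* or *ITGB4*, was at 158, 185 and 171 CPM against 209.55, 226 and 205 CPM. These libraries did not overlap, and the log2 fold change of 0.32 ± 0.10 passed the adjusted p (0.023) but not the fold limit. *ITGA7*, the laminin receptor of muscle, was low at 5.96, 5.53 and 4.74 CPM against 4.56, 3.27 and 4.23 CPM (log2 -0.43 ± 0.17, adjusted p = 0.063).

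Of the RGD-binding α chains, the fibronectin receptor chain *ITGA5* (ENSG00000161638, chr12:54395261-54419266, minus strand) had the largest increase among the 31 tested members. It went from 68.7, 75.1 and 72.9 CPM to 169, 206 and 217 CPM. Each Ad CMV 3xFlag-*Esrrg* library was well above the highest control library, a 2.73-fold increase (log2 1.45 ± 0.11, adjusted p = 1.3e-05). *ITGAV*, whose chain pairs with 5 different β chains, did not follow. It was at 185, 165 and 168 CPM against 205, 176 and 166 CPM, with overlapping groups (log2 0.08 ± 0.11, adjusted p = 0.56). *ITGA2B*, the platelet fibrinogen receptor chain, had 10 to 33 counts per library and was not called (log2 -0.45 ± 0.38, adjusted p = 0.35). *ITGA8* had 1 count in 1 library and none elsewhere. The chains of *ITGA4* and *ITGA9*, which bind fibronectin splice forms, *VCAM1* and tenascin, were at 54.2 to 60.9 CPM and 12.2 to 14.2 CPM with Ad CMV GFP and at 52.0 to 57.0 CPM and 14.1 to 14.7 CPM with Ad CMV 3xFlag-*Esrrg*. Their log2 fold changes were -0.09 ± 0.09 and 0.09 ± 0.11. Exons of *CERKL* on the other strand cover 26.4% of the exon length of *ITGA4*.

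**Figure D2:**
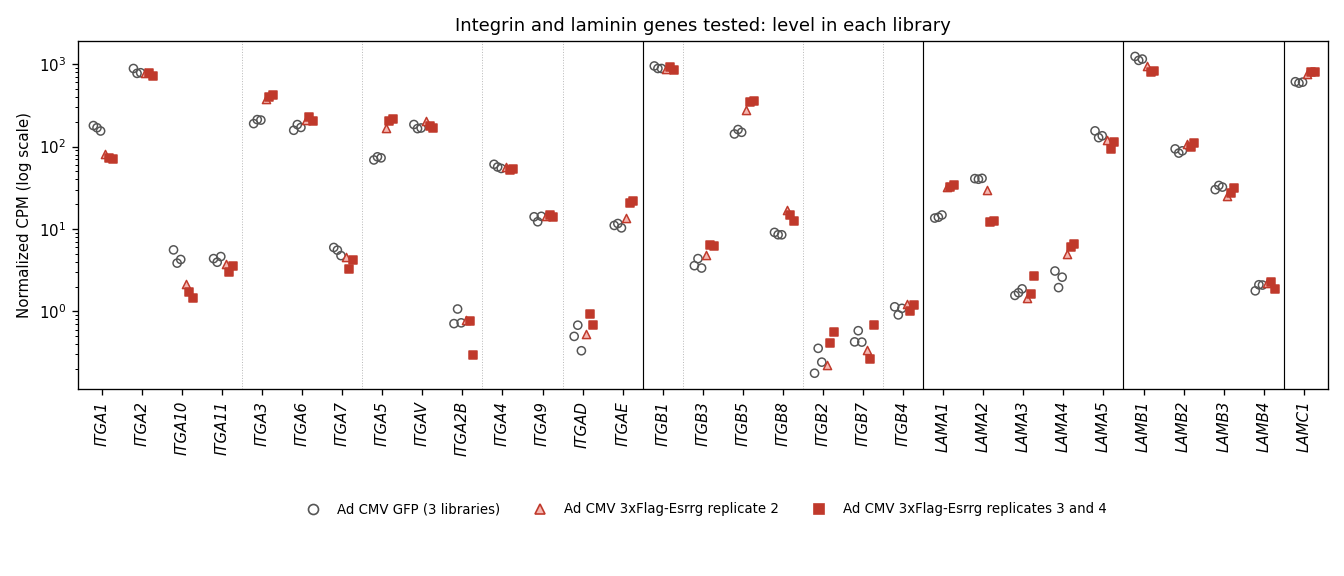
Level of each tested gene in each library as normalized CPM on a log scale, with Ad CMV GFP as open circles, Ad CMV 3xFlag-*Esrrg* replicate 2 as triangles and replicates 3 and 4 as squares; solid lines part the chain classes and dotted lines the groups by ligand or partner. *ITGA5*, *ITGB5*, *LAMA1* and *LAMA4* lie higher in all 3 Ad CMV 3xFlag-*Esrrg* libraries, and *LAMA2* lies at 29.7 CPM in replicate 2 but at 12.0 and 12.6 CPM in replicates 3 and 4.

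*ITGB1*, the common partner of the collagen and laminin receptor chains, was at 951, 886 and 886 CPM with Ad CMV GFP and 872, 934 and 861 CPM with Ad CMV 3xFlag-*Esrrg*. The groups overlapped, and the log2 fold change of -0.03 ± 0.11 (adjusted p = 0.83) changed sign under several settings. Of the β chains that pair with αV alone or nearly so, all 3 that could be tested were called higher, beside 17.3% of all tested genes and 25.9% of protein-coding genes, though *ITGB8* and *ITGB3* lost their calls under scaling by library size alone. *ITGB5* (ENSG00000082781, chr3:124761948-124901418, minus strand), a vitronectin receptor chain, rose from 142, 161 and 149 CPM to 281, 343 and 357 CPM. Each of the 3 libraries was above all controls, and the increase was 2.17-fold (log2 1.12 ± 0.12, adjusted p = 6.5e-05). *ITGB8* (ENSG00000105855, chr7:20330702-20415754, plus strand), whose dimer with αV activates latent TGF-β, rose from 9.08, 8.50 and 8.49 CPM to 17.1, 14.7 and 12.6 CPM (log2 0.77 ± 0.13, adjusted p = 9.6e-04). Here replicate 2 was the highest library rather than the lowest. *ITGB3* (ENSG00000259207, chr17:47253827-47313743, plus strand), the β chain of the vitronectin and platelet fibrinogen receptors, had 101 to 135 counts with Ad CMV GFP and 128 to 213 with Ad CMV 3xFlag-*Esrrg*. Its normalized levels of 3.58, 4.36 and 3.35 CPM and 4.79, 6.33 and 6.16 CPM did not overlap (log2 0.62 ± 0.17, adjusted p = 0.014), and 33.2% of its exon length is shared with a readthrough gene on the same strand. Without Ad CMV GFP replicate 1 or 4 or Ad CMV 3xFlag-*Esrrg* replicate 3 or 4 it was no longer called, at log2 values of 0.58, 0.54, 0.55 and 0.58, and its call was also lost with protein-coding genes only (0.48), correction for GC content and length (0.50) or the reads outside genes in the fit (0.23). *ITGB6*, the epithelial partner of αV, had at most 5 counts in any library. *ITGB4*, which pairs with α6 in hemidesmosomes, had 28 to 41 counts (log2 0.14 ± 0.23, adjusted p = 0.65).

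Integrin chains of leukocytes had few or no counts apart from *ITGAE*. As with *ACTN4*, a count at or near 0 in this table, for these or other members, cannot be read as absence. *ITGAE* (ENSG00000083457, chr17:3714628-3801188, minus strand), the chain by which mucosal T cells bind E-cadherin, rose from 11.0, 11.6 and 10.3 CPM to 13.5, 20.5 and 21.95 CPM (log2 0.77 ± 0.17, adjusted p = 0.0037). Replicate 2 was close to the controls and replicates 3 and 4 were well above them. The gene for its known partner, *ITGB7*, had only 9 to 23 counts per library (log2 -0.14 ± 0.40, adjusted p = 0.79), and 42.3% of its exon length overlaps *ZNF740* on the other strand. *ITGAD* and *ITGB2* had 11 to 31 and 5 to 19 counts and were not called (adjusted p = 0.26 and 0.24). *ITGAL* had 4 to 16 counts, *ITGAM* 0 to 9 and *ITGAX* 0 to 2, too few for the test. *ITGAM* had 1, 1 and 0 counts against 1, 8 and 9 and was called higher when no filter on low counts was set. *ITGAM*, *ITGAX* and *ITGAD* lie side by side on chromosome 16 and are close paralogs, so reads may be split among them.

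Laminin α chains moved in both directions. *LAMA1* (ENSG00000101680, chr18:6941742-7117797, minus strand), the α chain of the laminin of early embryos, was at 13.5, 13.9 and 14.8 CPM with Ad CMV GFP and 32.3, 32.5 and 34.4 CPM with Ad CMV 3xFlag-*Esrrg*. Its libraries lay close together within each group and far apart between groups, a 2.35-fold increase (log2 1.23 ± 0.10, adjusted p = 1.3e-05). Exons of noncoding genes on the other strand cover 11.1% of the exon length of *LAMA1*. *LAMA4* (ENSG00000112769, chr6:112107931-112254939, minus strand), the α chain of vessel and mesenchymal basement membranes, rose from 3.09, 1.94 and 2.60 CPM to 4.90, 5.97 and 6.52 CPM (log2 1.19 ± 0.20, adjusted p = 8.2e-04). *LAMA2* (ENSG00000196569, chr6:128883138-129516566, plus strand), the α chain of muscle and Schwann cell laminin, went the other way, from 40.8, 40.1 and 41.1 CPM to 29.7, 12.0 and 12.6 CPM. All 3 libraries were below the controls, but replicate 2 lay at more than 2 times the level of replicates 3 and 4. The 2.26-fold decrease (log2 -1.17 ± 0.28, adjusted p = 0.0061) became -1.61 without that library. *LAMA5*, the most abundant laminin α gene, was at 155, 128 and 135 CPM against 121, 93.2 and 112 CPM, a log2 fold change of -0.36 ± 0.12 that passed the adjusted p (0.029) but not the fold limit. *LAMA3*, the epithelial α chain, had 39 to 91 counts and overlapping groups (log2 0.18 ± 0.26, adjusted p = 0.59).

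Laminin β and γ chains changed less. *LAMB1*, whose chain joins most non-epithelial laminins, was at 1241, 1111 and 1153 CPM against 948, 804 and 837 CPM. The groups did not overlap and the log2 fold change of -0.44 ± 0.12 passed the adjusted p (0.011), but it stayed under 1.5-fold. *LAMC1*, the γ chain of most laminins, was at 612, 589 and 605 CPM against 755, 798 and 807 CPM (log2 0.39 ± 0.10, adjusted p = 0.0098), again under 1.5-fold. *LAMB2*, the β chain of the synaptic and kidney laminins, was at 93.6, 83.3 and 88.7 CPM against 107, 98.1 and 109.8 CPM (log2 0.24 ± 0.09, adjusted p = 0.053), and under scaling by library size alone its log2 value was -0.07. *LAMB3*, the epithelial β chain, stood at 30.0, 33.7 and 32.2 CPM against 24.95, 27.5 and 31.5 CPM (log2 -0.19 ± 0.11, adjusted p = 0.17). *LAMB4* had 50 to 76 counts (log2 0.09 ± 0.19). *LAMC3* had 3 to 7 counts and was not tested.

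**Figure D3:**
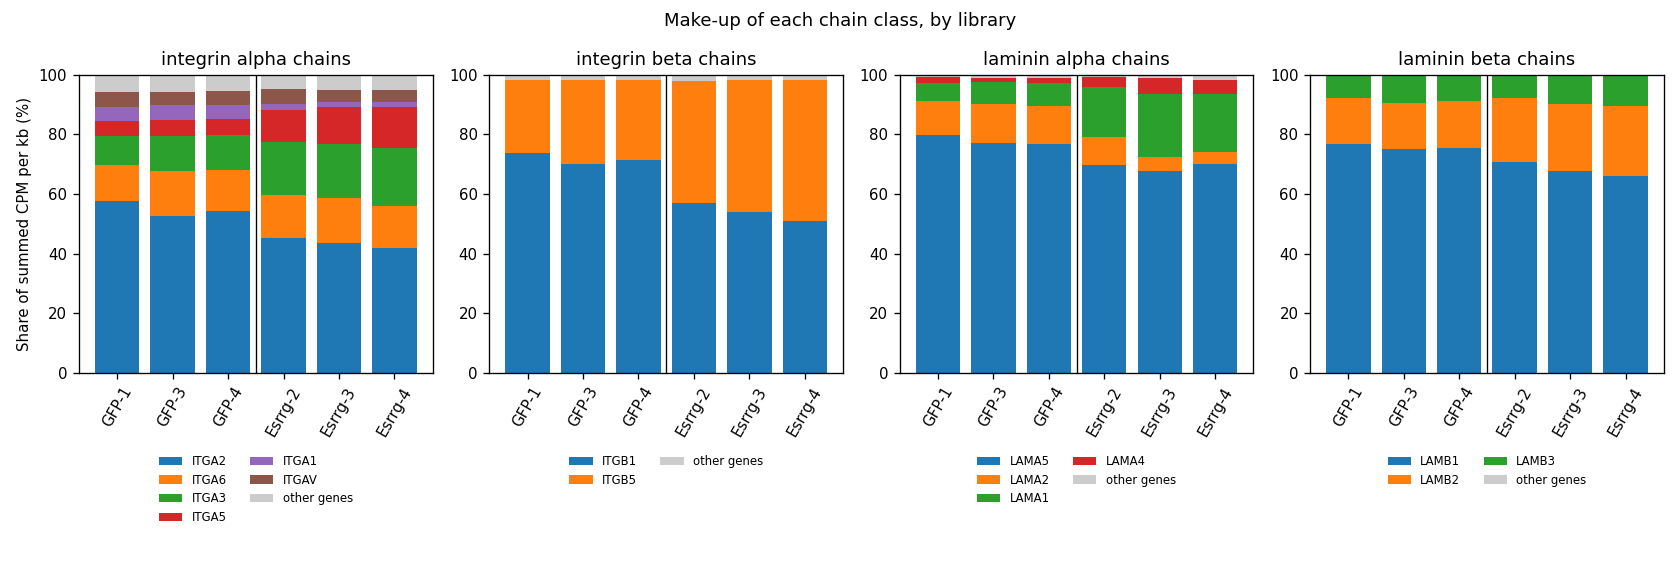
Make-up of each chain class in each library, as the percent of the summed CPM per kilobase of exon taken by each gene; a vertical line parts Ad CMV GFP (left) from Ad CMV 3xFlag-*Esrrg* (right, labelled Esrrg), and genes with small shares are grouped in grey. The share of *ITGB5* among integrin β chains goes from 26.6% to 44.2% on average, and that of *LAMA1* among laminin α chains from 7.12% to 19.1%.

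To compare levels between genes, CPM were divided by exon length and expressed as shares within each chain class, a measure that does not depend on the scaling between libraries. Shares within a class add up to the whole, so they are not separate results, and a share can fall without a fall in level. *ITGA2* held 57.5%, 52.8% and 54.3% of the integrin α level with Ad CMV GFP and 45.3%, 43.7% and 41.9% with Ad CMV 3xFlag-*Esrrg*. Though its own level had not passed the test, its share was lower in every library. *ITGA3* went from 11.1% ± 0.99 to 18.5% ± 0.97 (SD, n = 3) and *ITGA5* from 5.21% ± 0.38 to 12.2% ± 1.497, while *ITGA1* went from 4.81% ± 0.24 to 1.86% ± 0.16. In the β class *ITGB1* went from 71.7% ± 1.94 to 53.9% ± 3.01 and *ITGB5* from 26.6% ± 1.87 to 44.2% ± 3.10. Among laminin α chains *LAMA5* went from 77.9% ± 1.55 to 69.1% ± 1.24, *LAMA1* from 7.12% ± 0.73 to 19.1% ± 2.23 and *LAMA2* from 12.4% ± 0.89 to 6.10% ± 2.78. *LAMA2* was thus above *LAMA1* in each control library and below it in each Ad CMV 3xFlag-*Esrrg* library. *LAMB1* went from 75.8% ± 0.75 to 68.2% ± 2.26 and *LAMB2* from 15.6% ± 0.25 to 22.5% ± 1.00, and *LAMC1* made up at least 99.9% of the γ class throughout. For each of these shares other than that of *LAMC1* the groups did not overlap, and the exact two-sided permutation test gave p = 0.1, the smallest value that 3 against 3 libraries allow. With the longest transcript as the length the directions were the same, with *ITGA2* at 43.6% and 33.0%, *ITGB5* at 17.2% and 31.3%, *LAMA1* at 7.50% and 20.8% and *LAMA2* at 22.6% and 11.4%. Per kilobase of exon, *LAMC1* (71.3) and *LAMB1* (62.9) were close in the control libraries, whereas per kilobase of the longest transcript *LAMB1* (173) was above *LAMC1* (75.9), so the order of these 2 genes was not settled.

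**Figure D4:**
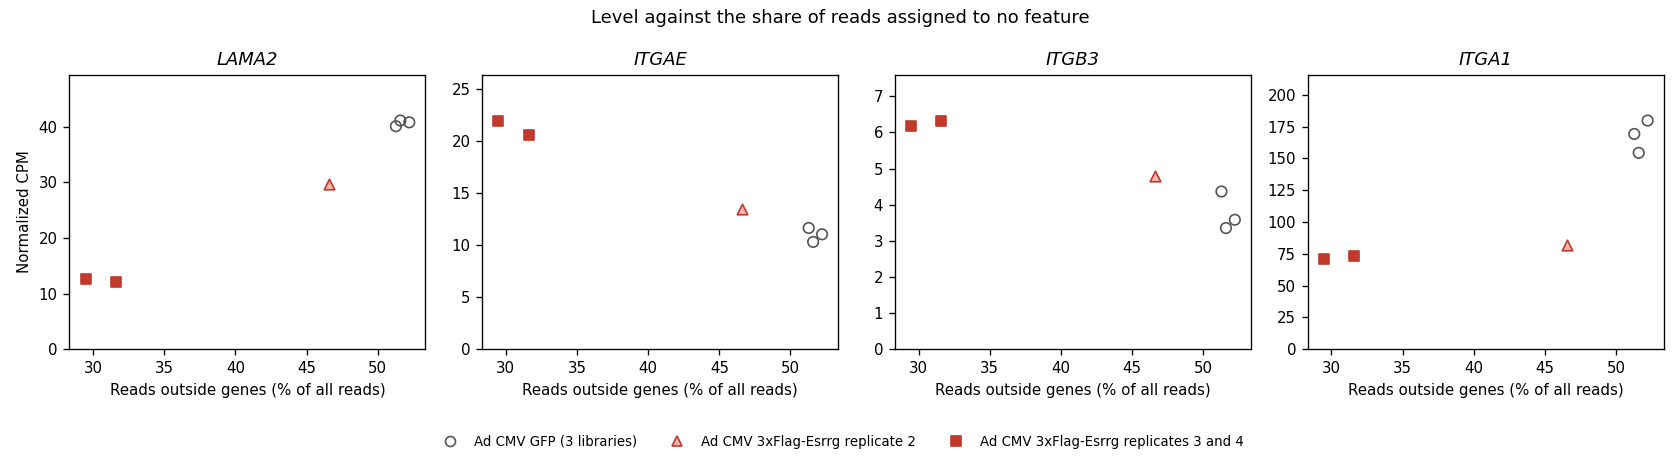
Normalized CPM of 4 called genes in each library against the share of reads outside genes (reads that met no annotated feature), with symbols as in the plot of levels. *LAMA2*, *ITGAE* and *ITGB3* in Ad CMV 3xFlag-*Esrrg* replicate 2, with 46.6% of reads outside genes, lie between the controls and replicates 3 and 4, whereas *ITGA1* in replicate 2 (82.2 CPM) lies beside replicates 3 and 4.

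The share of reads outside genes moved with the groups and, within Ad CMV 3xFlag-*Esrrg*, with the level of some members. Replicate 2, with 46.6% of its reads outside genes, had intermediate levels of *LAMA2* and *ITGAE*. With that share added to the fit as a covariate, 1773 of all 24500 tested genes were called higher and 1323 lower. The main fit had called 4234 and 4117. Of the 11 called members, 8 were still called. *LAMA2* (log2 -0.07), *ITGAE* (0.08) and *ITGB3* (0.23) were not, while *ITGA5* (1.12), *LAMA1* (1.17), *ITGB8* (1.11), *ITGA3* (0.85), *LAMA4* (0.85), *ITGB5* (0.79), *ITGA1* (-0.96) and *ITGA10* (-0.86) were. Without replicate 2, all 11 genes were called in the same direction. More genes of the whole table were also called in that fit, 5820 higher and 5141 lower of 25369 tested. The share of reads outside genes did not overlap between the groups. The value of the covariate fit thus rests on the spread within them, which is mainly that of replicate 2.

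RefSeq promoter sequence was read (GRCh38.p14) as windows from 250 bases before to 50 bases after a start for 26 of the 38 genes, 33 windows in all. Members without a window included *ITGA3*, *ITGA7*, *ITGA9*, *ITGAD*, *ITGAL*, *ITGAX*, *ITGB2*, *ITGB3*, *ITGB4*, *LAMA1* and *LAMC3*. Both strands were searched for AAGGTCA, the core site that ERR receptors bind (TGACCTT on the other strand), for the longer site TNAAGGTCA, which contains it (TGACCTTNA), for the AP-1 site TGANTCA, whose letters read the same on both strands, and for the GC box GGGCGG, which reads CCGCCC on the other strand. Shown are the called integrin α and laminin α genes with the largest changes that have a window, *ITGA5* (chr12:54419217-54419516, minus strand) and *LAMA4* (chr6:112254518-112254817, minus strand) among those higher, *ITGA10* (chr1:145910001-145910300, minus strand) and *LAMA2* (chr6:128882888-128883187, plus strand) among those lower, and the *ITGAV* window with the sole match to AAGGTCA (chr2:186599955-186600254, plus strand, the second start of that gene). Capitals mark the matches.
ITGA5: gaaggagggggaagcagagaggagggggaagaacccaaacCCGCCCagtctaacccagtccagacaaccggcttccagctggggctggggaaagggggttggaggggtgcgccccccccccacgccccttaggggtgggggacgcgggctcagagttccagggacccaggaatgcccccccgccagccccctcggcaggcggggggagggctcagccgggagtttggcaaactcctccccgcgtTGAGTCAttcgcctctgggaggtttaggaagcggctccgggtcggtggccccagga
LAMA4: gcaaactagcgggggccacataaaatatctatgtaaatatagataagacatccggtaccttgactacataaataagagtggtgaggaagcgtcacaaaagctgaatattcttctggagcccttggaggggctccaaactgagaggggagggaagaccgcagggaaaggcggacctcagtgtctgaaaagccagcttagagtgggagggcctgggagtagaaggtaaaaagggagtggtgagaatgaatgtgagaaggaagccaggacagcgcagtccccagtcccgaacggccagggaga
ITGA10: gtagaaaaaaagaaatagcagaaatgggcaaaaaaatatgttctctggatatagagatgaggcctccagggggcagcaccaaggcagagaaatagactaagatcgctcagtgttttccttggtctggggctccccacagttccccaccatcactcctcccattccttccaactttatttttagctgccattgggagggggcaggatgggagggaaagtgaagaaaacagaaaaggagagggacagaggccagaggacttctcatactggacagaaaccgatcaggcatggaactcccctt
LAMA2: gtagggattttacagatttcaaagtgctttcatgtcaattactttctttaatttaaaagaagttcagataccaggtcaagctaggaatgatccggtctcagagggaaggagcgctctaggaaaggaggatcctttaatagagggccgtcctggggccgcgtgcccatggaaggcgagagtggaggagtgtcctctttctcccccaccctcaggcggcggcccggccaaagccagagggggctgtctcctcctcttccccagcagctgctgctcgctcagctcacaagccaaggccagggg
ITGAV: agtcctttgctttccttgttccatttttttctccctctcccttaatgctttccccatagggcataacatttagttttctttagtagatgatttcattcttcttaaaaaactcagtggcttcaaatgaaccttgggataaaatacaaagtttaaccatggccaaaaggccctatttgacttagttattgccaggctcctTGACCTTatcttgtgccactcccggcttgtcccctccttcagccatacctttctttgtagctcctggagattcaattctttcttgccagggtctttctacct
AAGGTCA was found in 1 of the 33 member windows, beside 3.92% of 35116 windows of all genes, and this match, on the reverse strand from position -52 with the start base counted as 0, belonged to *ITGAV*, which was not called. TNAAGGTCA was in none of the member windows and in 0.951% of all windows. TGANTCA was in the windows of *ITGA5* (from position -6), *LAMA3* and *LAMB3*, and in 7.71% of all windows, while GGGCGG was in 19 member windows of 14 genes and in 45.0% of all windows. These matches describe letters in short windows and say nothing of binding.

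Integrins signal through adaptor proteins at focal adhesions, and of 59 adaptor genes 54 were tested. With Ad CMV 3xFlag-*Esrrg* 22 were called higher (40.7%, beside 17.3% of all tested genes and 25.9% of protein-coding genes) and 1 lower (1.85%, beside 16.8% and 12.4%), with a median log2 fold change of 0.46. The list was chosen with earlier results of these data known, so these shares are not an unbiased comparison with the background. *CSRP1*, a LIM protein on actin fibres, had 2245, 2909 and 2895 counts against 5076, 9243 and 9974 (log2 1.54 ± 0.16). *VASP*, which promotes actin filament growth, had 1391, 1884 and 1917 counts against 3011, 5287 and 5856 (log2 1.39 ± 0.15). Both genes were higher in each Ad CMV 3xFlag-*Esrrg* library, with replicate 2 the lowest of them in raw counts. *PARVB*, of the *ILK*-PINCH-parvin complex, rose by log2 1.38 ± 0.14, *NEDD9*, a docking protein of focal adhesion kinase, by 1.15 ± 0.11 and *PDLIM7* by 1.10 ± 0.11. Once the fit held the reads outside genes as a covariate, 11 adaptors were called higher, beside 1773 of all 24500 tested genes, and under scaling by library size alone 10 were higher and 7 lower, beside 2200 and 7566 of all tested genes. In a fit of protein-coding genes only, 16 of the 54 adaptors were called higher, beside 2814 of 13746 genes. *ACTN4* had no counts and *ZYX* at most 1 in any library, though both are used by most adherent cells, so these 2 genes cannot be judged from this table.

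Of 58 genes for other integrin ligands, basement membrane proteins and surface partners, 49 were tested, and 21 were called higher (42.9%, beside 17.3% of all tested genes and 25.9% of protein-coding genes) and 4 lower (8.16%, beside 16.8% and 12.4%), with a median log2 fold change of 0.39. This list too was chosen with earlier results of these data known, so its shares have the same limit. *SPP1* encodes osteopontin, an RGD ligand of the αV integrins, and had 22, 29 and 32 counts with Ad CMV GFP and 651, 1102 and 1026 with Ad CMV 3xFlag-*Esrrg*. No other gene of these lists changed as much, at log2 5.01 ± 0.17 (adjusted p = 9.2e-08). *SDC4*, a heparan sulfate proteoglycan that acts beside the *ITGA5* chain on fibronectin, had 789, 1095 and 983 counts against 3193, 5721 and 5737 (log2 2.30 ± 0.15). *LRRC32*, which holds latent TGF-β at the surface, had 23, 43 and 46 counts against 115, 155 and 189 (log2 1.996 ± 0.23). The matricellular genes *CCN1* and *CCN2*, whose products bind integrins, rose by log2 1.59 ± 0.15 and 1.54 ± 0.19. Fibronectin itself, *FN1*, had 55745, 59554 and 65093 counts against 73902, 88230 and 91563 and passed the adjusted p (0.0079) but not the fold limit (log2 0.46 ± 0.12). Genes called lower included *FREM1*, a basement membrane protein of the Fraser complex (log2 -1.33 ± 0.11), *THBS2*, a thrombospondin (-0.91 ± 0.09), and *CD9*, a tetraspanin that associates with integrins (-0.60 ± 0.18). With the same covariate, 13 genes of this list were called higher, beside the 1773 of 24500 given above.

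**Figure D5:**
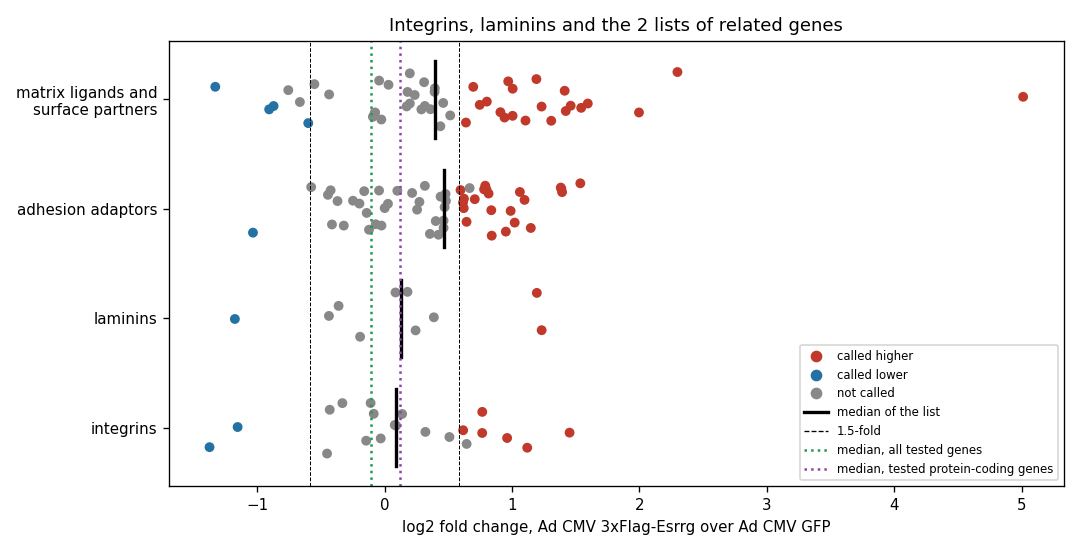
Log2 fold change of every tested integrin, laminin, adhesion adaptor and matrix or surface partner gene, Ad CMV 3xFlag-*Esrrg* over Ad CMV GFP, with 1 point per gene in the colours of the plot of changes, vertical jitter without meaning, a black bar at each list's median and dashed lines at 1.5-fold. The medians of the adaptor and matrix lists (0.46 and 0.39) lie to the right of those of all tested genes (-0.10) and of protein-coding genes (0.12), and *SPP1* stands at 5.01. Both lists were chosen with earlier results of these data known.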

How the data were processed

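Total RNA of 6 SH-SY5Y libraries, 3 per group, was depleted of ribosomal RNA and made into stranded libraries per the labels. The authors deposited raw counts per gene from HTSeq. The submitters' processing notes name CASAVA, Trim Galore 0.6.7, STAR 2.7.9a, HTSeq 0.11.3, DESeq2 and GRCh38, and the strand setting and annotation release are not given in the sources used here. The table holds 67060 genes and 5 summary entries, which were kept out of library sizes and tests. Symbols, lengths and GC content came from GENCODE 44, in which 60419 identifiers (90.1%) were found, and the others held 0.153% of counts. No pair of libraries within a group agreed within sampling noise.

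Counts were fitted in R 4.3.3 with edgeR 4.0.16 (filterByExpr, TMM, quasi-likelihood test, Benjamini-Hochberg adjustment over 24500 genes). The SE of a log2 fold change was taken as its size divided by √F. CPM were scaled by TMM. Gene coordinates are those of GENCODE 44 on GRCh38. The alternatives were DESeq2 1.42.0, RLE or library size scaling, other filters and fold limits, a fit of protein-coding genes alone, leaving out each library, a replicate block, curves for GC content and length (mgcv 1.9.3), both together, and reads outside genes as a covariate. The edgeR and DESeq2 fits were run on simulated counts with a small set of changed genes, balanced in direction. Libraries differed there only in size apart from these genes, so the simulation could not test how results depend on normalization. Members and lists were chosen with earlier results of these data known. Values per library are given for each called member, the 5 integrin and 5 laminin genes with the highest level per length, and their partners. For the adaptor and matrix lists, the 5 genes called higher and the 5 called lower with the largest changes and a mean of at least 50 counts are named. A few of the genes so selected are not reported here. *FN1*, *ACTN4*, *ZYX* and *KRT18* were named after their values were seen. Tables and figures were made with Python 3.11.15, pandas 2.3.3, numpy 2.4.6 and matplotlib 3.10.9.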

Additional observations from a re-analysis of the deposited data

Results flagged for a closer look

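Reads that could not be given to a gene differed between the groups and are not used in any comparison above. Reads ambiguous between genes made up 4.55%, 4.81% and 4.87% of all reads in Ad CMV GFP replicates 1, 3 and 4 and 5.69%, 9.84% and 9.79% in Ad CMV 3xFlag-*Esrrg* replicates 2, 3 and 4. Reads aligned to several places made up 7.26%, 7.41% and 7.16% in Ad CMV GFP and 9.33%, 12.7% and 13.0% in Ad CMV 3xFlag-*Esrrg*. Both shares were above the control level in each Ad CMV 3xFlag-*Esrrg* library. Groups of 3 libraries are too small for the test of single outlying libraries.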

How the results depend on the processing

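No member was called in opposite directions under any alternative. DESeq2, RLE scaling, at least 10 counts in every library and leaving out Ad CMV 3xFlag-*Esrrg* replicate 2 or Ad CMV GFP replicate 3 kept all 11 called members. With main counts of 8 higher and 3 lower, library size as the only scaling gave 5 and 7 (*ITGAE*, *ITGB3* and *ITGB8* lost, *ITGA11*, *ITGA7*, *LAMA5* and *LAMB1* gained as lower), the GC and length correction 5 and 6 (*ITGA3*, *ITGAE* and *ITGB3* lost, *ITGA7*, *LAMA5* and *LAMB3* gained as lower), a 2-fold limit 4 higher, no fold limit 5 lower, and leaving out 1 library 7 to 8 higher and 3 lower, where the gene lost was *ITGB3*. Protein-coding genes only lost *ITGB3*, and no filter on low counts added *ITGAM*. Over all tested genes, 4234 were called higher and 4117 lower, which became 2200 and 7566 with library size scaling and 1773 and 1323 with the covariate, the reads outside genes. That covariate left 6 members higher and 2 lower. The cause of these shifts was not tested. Adaptors called higher (22) became 10 with library size scaling, 11 with the covariate, 8 with a 2-fold limit and 18 to 28 without 1 library. They became 16 with protein-coding genes only, 16 with GC and length correction and 17 with that correction and the block. The counts over all tested genes were, in that order, 2814 of 13746, 3680 of 24232 and 4217 of 24232. Without 1 library, 3710 to 5820 of all tested genes were called higher. The highest values, 28 adaptors and 5820 genes, both came without Ad CMV 3xFlag-*Esrrg* replicate 2. Adaptors called lower (1) became 7 with library size scaling, 2 with at least 10 counts, protein-coding genes only or the covariate, 4 with GC and length correction, alone or with the block, 8 with no fold limit and 1 to 2 without 1 library. Matrix genes called higher (21) became 13 with the covariate and 19 to 23 without 1 library, and those called lower (4) became 1 with a 2-fold limit and 3 to 5 without 1 library.

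Replicate numbers 3 and 4 are shared by the groups, but the deviations of same-numbered libraries correlated by only 0.075 and -1e-04, so the numbers do not show pairing. A replicate block kept all 11 members called and gave log2 values of 0.017 for *ITGB1* and -0.021 for *LAMB4*. Combined with the GC and length correction, the block gave 6 higher and 7 lower.

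Changes of sign occurred only in members that were not called. Library size scaling gave -0.23 for *ITGAV*, -0.23 for *ITGA9*, -0.18 for *ITGB4*, -0.16 for *LAMA3*, -0.074 for *LAMB2* and -0.23 for *LAMB4*. Protein-coding genes only gave -0.051 for *ITGAV*, -0.046 for *ITGA9*, -0.0012 for *ITGB4* and -0.051 for *LAMB4*. GC and length correction, alone and with the block, gave 0.12 and 0.20 for *ITGA2*, 0.21 and 0.27 for *ITGA4*, 0.32 and 0.41 for *ITGB1*, -0.32 and -0.40 for *ITGB4*, -0.16 and -0.22 for *LAMB2*, and with the block -0.028 for *LAMB4*. The covariate gave 0.17 for *ITGA2B*, 0.038 for *ITGA4*, -0.064 for *ITGAD*, -0.65 for *ITGB2* and -0.50 for *LAMA3*. DESeq2 and RLE scaling both gave 0.048 for *ITGB1*. Leaving out 1 library gave -0.061 to 0.090 for *ITGB1*, -0.66 to 0.12 for *ITGB7* and -0.13 to 0.44 for *LAMA3*.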
